A study of Homo sapiens with 4 samples.

Results

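The genes examined were 9 that govern plasminogen activation and clotting at the cell surface, PLAU, PLAUR, PLAT, SERPINE2, F3, TFPI, TFPI2, THBS1 and THBD, chosen by name from 29655 distinct gene names. All 9 were listed in the tables, and 8 of them passed the filter on low values described below. TFPI2 did not pass it. Total RNA of UMSCC74B, an established cell line labelled as head and neck squamous cell carcinoma (HNSCC), was sequenced in 4 libraries. Of these, 2 came from cells that received control shRNA, with the genotype given as WT, and 2 from cells that received PRMT5 shRNA and are labelled PRMT5 KD, all after 72 h. PRMT5 is the main enzyme that places symmetric dimethylarginine on proteins. The labels describe transfected plasmids and the methods of the study describe lentiviral particles, and no source used here gives the number of shRNA sequences or says that replicates were separate cultures. The p-values below therefore measure the spread between these libraries, which may be technical.

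Plasminogen is turned into plasmin, a protease that dissolves fibrin and degrades matrix, by the urokinase-type (PLAU) and tissue-type (PLAT) activators. Urokinase is held at the cell surface by its receptor PLAUR, and both activators are inactivated by serpins, among them SERPINE2 and SERPINB2. Clotting outside the vessel starts from tissue factor (F3), the membrane receptor of factor VII. It is restrained by the Kunitz-type inhibitor TFPI and by thrombomodulin (THBD), which binds thrombin and redirects it to protein C. TFPI2 is a related Kunitz-type inhibitor that acts mainly on plasmin and other proteases of the matrix. Thrombospondin-1 (THBS1) is a matricellular glycoprotein that binds cell surface receptors and latent TGF-beta. Squamous carcinoma cells are known for their release of urokinase and their display of tissue factor.

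Estimated counts per gene were compared after scaling by TMM, a method of edgeR that sets libraries to a common level over most genes. CPM here are counts scaled to a common library total on that scale, with the total taken over the genes tested. RPKM are the same values per kilobase of annotated exon, which allows levels of different genes to be compared. The test took in 11896 protein-coding genes, those that reached 0.5 RPKM in the 2 control or the 2 PRMT5 KD libraries. A gene was called when the adjusted p of edgeR's quasi-likelihood test (Benjamini-Hochberg over all genes tested) was under 0.05 and the absolute log2 fold change was at least 0.5.

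Libraries held 52185289 to 65964558 counts. Ribosomal RNA took 15.3% and 14.2% of the counts in control and 26.2% and 18.02% in the libraries labelled PRMT5 KD. The PRMT5 transcript was higher under that label, at 132 and 149.6 CPM against 94.3 and 84.3 CPM (log2 fold change 0.66, SE 0.12, adjusted p = 0.00545), so all directions are by label. The study describes the silencing at the protein level, by immunoblot, which was not analysed here. Defining squamous markers were at or near 0, with KRT5 at 0 to 4 counts per library, KRT6A at 0 to 1, KRT14 at 0 to 22 and CDH1 at 2 to 9. DSG3, TP63 and PERP passed the filter, and all 3 were called lower, against 24.3% of all genes tested. TP63 reached the filter in control alone. With 1 library left out in turn, the log2 fold change was -1.79 to -0.97 for TP63 and -1.075 to -0.61 for DSG3. TP63 lost its call without control replicate 1 or control replicate 2, and DSG3 without control replicate 1. The log2 fold change of PERP was -0.67 to -0.43, which crosses the threshold of 0.5 in size. PERP lost its call without control replicate 2 or PRMT5 KD replicate 1, with total counts alone and over all gene names. Fibroblast markers were present, and all 7 tested of 8 were called lower, against the same 24.3%. Their summed level was 802 and 942 CPM in control and 129 and 151 CPM under the PRMT5 KD label. COL3A1, of this list, reached the filter in control alone. Endothelial markers summed to 4.50 to 13.1 CPM, with CDH5 at 0 to 8 counts. PECAM1, the 1 tested, was called lower at 293 and 489 counts in control against 14 and 7 (log2 fold change -5.27). It reached the filter in control alone. Among those not tested, TIE1 went the other way, at 88 and 107 counts in control against 140 and 173, and KDR overlapped, at 34 and 36 against 52 and 33. Monocyte markers summed to 131 to 174 CPM, with PTPRC at 0 to 5 counts and FCGR3A and AIF1 at 0 throughout. CD14 was called lower, at 1371 and 2000 counts against 51 and 89, and CD68 higher. Once fold changes were corrected for GC content and exon length, CD68 was at 0.46 and not called. The part of these differences in the results below was not tested, and in bulk RNA fewer cells of a type and less RNA per cell cannot be told apart.

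The promoters of 4 of the genes that hold motifs searched for are shown. They belong to genes with higher (PLAUR, TFPI2) and lower (F3, THBS1) mean levels under the PRMT5 KD label. SERPINE2 and TFPI also held matches, given below, and their promoters are not shown. Each line gives the 250 bases before the RefSeq start on GRCh38.p14, 5′ to 3′ on the strand of the gene. Capitals mark matches on either strand. The TATA box was searched as TATAAA. The Sp1 GC box was searched as GGGCGG. The letters of the AP-1 motif were TGANTCA, and those of the TEAD motif were GGAATG. The NF-kB motif was searched as well. None of these matches overlapped another. The RefSeq start of PLAUR lies inside the longer span that GENCODE gives the gene.
PLAUR, chr19:43670170-43670419, minus strand: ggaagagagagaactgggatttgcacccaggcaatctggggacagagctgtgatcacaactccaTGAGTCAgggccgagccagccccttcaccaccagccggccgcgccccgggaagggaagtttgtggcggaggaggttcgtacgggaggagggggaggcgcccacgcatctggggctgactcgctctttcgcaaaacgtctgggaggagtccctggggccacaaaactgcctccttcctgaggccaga
TFPI2, chr7:93890754-93891003, minus strand: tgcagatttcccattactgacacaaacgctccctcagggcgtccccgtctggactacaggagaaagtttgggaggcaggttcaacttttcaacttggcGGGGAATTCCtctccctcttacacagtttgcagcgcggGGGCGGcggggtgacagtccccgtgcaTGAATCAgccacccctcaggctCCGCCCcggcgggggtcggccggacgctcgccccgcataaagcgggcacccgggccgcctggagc
F3, chr1:94541760-94542009, minus strand: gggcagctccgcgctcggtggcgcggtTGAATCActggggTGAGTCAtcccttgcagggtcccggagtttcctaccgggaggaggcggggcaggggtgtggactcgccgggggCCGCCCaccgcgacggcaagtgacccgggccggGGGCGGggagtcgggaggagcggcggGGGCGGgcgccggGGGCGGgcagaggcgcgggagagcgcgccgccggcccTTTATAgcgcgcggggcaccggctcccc
THBS1, chr15:39580829-39581078, plus strand: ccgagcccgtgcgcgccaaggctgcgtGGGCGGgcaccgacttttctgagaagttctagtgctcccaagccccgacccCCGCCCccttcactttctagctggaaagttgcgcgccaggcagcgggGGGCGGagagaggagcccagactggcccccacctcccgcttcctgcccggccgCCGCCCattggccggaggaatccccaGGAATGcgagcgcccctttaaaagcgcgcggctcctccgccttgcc

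Over windows of 300 bases, which also take in 50 bases after the start, the AP-1 letters occurred in 3 of the 7 genes with an entry (PLAUR, F3 and TFPI2) and in 7.76% of 27305 promoters. The match in PLAUR began 186 bases before the start, that in TFPI2 87 bases before it, and the pair in F3 began 223 and 210 bases before it. GC boxes occurred in 4 of the 7, with 4 copies each in F3 and THBS1, 2 in TFPI2 and 1 in SERPINE2, and in 44.6% of all promoters. NF-kB letters were found in TFPI2 and TFPI, against 6.47% of promoters, a TATA box on the minus strand of the window in F3 alone, against 3264 of the 27305, and TEAD letters in THBS1 alone, against 14.0%. No match to these letters was found in the PLAU window. PLAT and THBD were the genes without an entry. Of the genes with AP-1 letters, PLAUR was called higher, F3 was not called and TFPI2 did not pass the filter. Of those with GC boxes, THBS1 was called lower and F3 and SERPINE2 were not called. TFPI2, again below the filter, was the other. Whether motifs went with direction was not tested.

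Of the 8 genes tested, PLAUR, THBD and TFPI were called higher and PLAT and THBS1 lower in the libraries labelled PRMT5 KD. PLAU, SERPINE2 and F3 were not called. Among all genes tested, 45.5% were called, 21.2% higher and 24.3% lower, so 5 calls among 8 genes must be read against a background near that size. The groups did not overlap for 6 of the 8, with 3 higher and 3 lower, against 80.5% of all genes tested, 39.9% higher and 40.6% lower. Scaling by total counts alone, with totals taken over the genes tested, made the same 5 calls among these genes. It moved the median over all genes tested from -0.0077 to 0.17 on the log2 scale. The share of calls that were higher went from 46.5% to 61.5%.

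**Figure D1:**
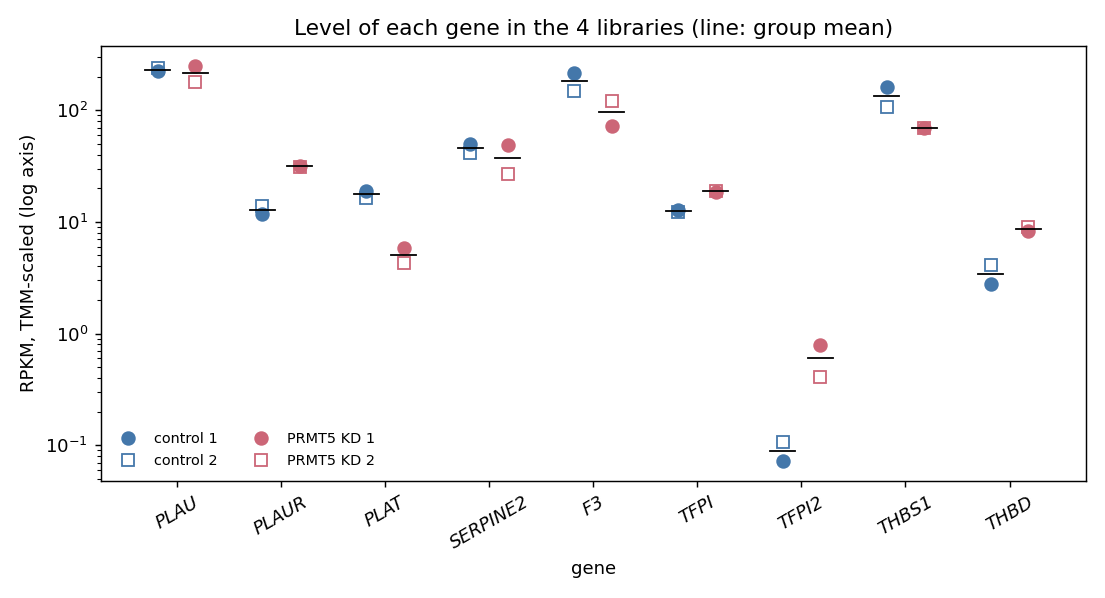
Level of the 9 genes in each library, as RPKM scaled by TMM, on a log axis. Blue symbols are control and red symbols PRMT5 KD libraries, filled circles replicate 1, open squares replicate 2, and short lines the mean of 2 libraries. PLAU lies highest, at a mean of 231 RPKM in control, and TFPI2 lowest, at 0.0894 RPKM.

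Of the plasminogen activators, PLAT fell and PLAU was not called. PLAU, on the plus strand of chromosome 10 of GRCh38 from 73909177 to 73917496, encodes urokinase and had the highest level of the 9 genes per exon length, though not in CPM, where THBS1 was higher in control. It was at 659.7 and 701 CPM in control and at 739 and 533 CPM under the PRMT5 KD label. The control values lay between the PRMT5 KD values, so the groups overlapped. The means were 680.2 ± 28.9 and 636 ± 146 CPM (SD, n = 2 each), and the log2 fold change was -0.098 (SE 0.185, adjusted p = 0.678 from edgeR). With 1 library left out in turn it lay between -0.32 and 0.13, never with a call. In control the PLAU level per length, 231 RPKM, exceeded that of 99.5% of the genes tested.

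PLAT, the tissue-type activator, lies on the minus strand of chromosome 8 from 42174718 to 42207709 and fell most among the 8 genes. It had 147 and 127 CPM in control against 45.55 and 33.1 CPM under the PRMT5 KD label. Both control libraries lay far above both others, with replicates 1.16-fold apart in control and 1.38-fold under the PRMT5 KD label. Means were 137 ± 13.9 and 39.3 ± 8.84 CPM (SD, n = 2 each), a 3.49-fold decrease (log2 fold change -1.80, SE 0.18, adjusted p = 0.000704). A lower log2 fold change was found for 4.203% of the genes tested. The call was also made in all 16 other fits, and without each library in turn the log2 fold change ran from -2.015 to -1.58.

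PLAUR encodes the receptor that concentrates urokinase at the cell surface and lies on the minus strand of chromosome 19 from 43646095 to 43670547. Its levels were 52.3 and 62.3 CPM in control and 142 and 138 CPM under the PRMT5 KD label. The PRMT5 KD libraries differed by 1.03-fold and each was above both control libraries. From 57.3 ± 7.06 to 139.7 ± 2.60 CPM (SD, n = 2 each) it rose 2.44-fold (log2 fold change 1.29, SE 0.13, adjusted p = 0.000602), more than 94.0% of the genes tested. Its log2 fold change stayed between 1.17 and 1.42 with each library left out, and the call was made in all 16 other fits. The receptor therefore rose while the level of its ligand PLAU, on the same scale, was not called in either direction.

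SERPINE2, or protease nexin-1, inhibits urokinase, tissue-type activator and thrombin and is on the minus strand of chromosome 2 from 223975045 to 224039318. It had 444 and 371 CPM in control and 433 and 238 CPM under the PRMT5 KD label. The first PRMT5 KD library lay between the control libraries and the second well below them, a 1.82-fold difference between replicates. The log2 fold change was -0.28 (SE 0.30, adjusted p = 0.458). That result rested on which library was kept. Without PRMT5 KD replicate 1 it was -0.74, with a call, and without PRMT5 KD replicate 2 it was 0.094. Fits with 1 PRMT5 KD library take no account of the spread between PRMT5 KD replicates.

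Another serpin that blocks urokinase and tissue-type activator, SERPINB2, was called higher. This inhibitor, which cells keep largely inside, had 4.93 and 5.46 CPM in control and 1452 and 205 CPM under the PRMT5 KD label, so that replicates of the latter group differed by 7.09-fold. The log2 fold change was 7.315 (SE 1.19, adjusted p = 0.00782), or 5.34 without PRMT5 KD replicate 1, and the call was lost without a filter on low counts (adjusted p = 0.0711). Whether SERPINE2 differed from SERPINB2 in its response was not tested.

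On the clotting side, F3 encodes tissue factor and lies on the minus strand of chromosome 1 from 94529173 to 94541759. It had 628 and 425 CPM in control and 207 and 349.5 CPM under the PRMT5 KD label. The groups did not overlap, but replicates were 1.48-fold apart in control and 1.69-fold apart under the PRMT5 KD label. Means were 526 ± 143 and 278 ± 101 CPM (SD, n = 2 each), with a log2 fold change of -0.92 (SE 0.31) that missed the threshold at an adjusted p of 0.0562. DESeq2 called it lower at an adjusted p of 0.00395. So did edgeR once fold changes were corrected for GC content and exon length (log2 fold change -1.125, adjusted p = 0.0298). Without PRMT5 KD replicate 2 it was -1.34, also with a call, but that fit takes no account of the spread between PRMT5 KD replicates. Without PRMT5 KD replicate 1 it was -0.55 and without control replicate 1 -0.61, neither with a call. In all, 5 of the 16 other fits called it.

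TFPI, the inhibitor of the tissue factor and factor VIIa complex, lies on the minus strand of chromosome 2 from 187464230 to 187565760. It had 151 and 144 CPM in control and 216 and 223 CPM under the PRMT5 KD label. Replicates differed by 1.05-fold in control and 1.03-fold under the PRMT5 KD label, less than the distance between groups. It rose from 148 ± 4.73 to 219.8 ± 5.04 CPM (SD, n = 2 each), a 1.49-fold change (log2 fold change 0.57, SE 0.11, adjusted p = 0.00555). Without control replicate 2 the log2 fold change was 0.54 and the adjusted p 0.0695. The counts do not separate its isoforms, and the annotation places the antisense RNA CALCRL-AS1 over 92059 bases of the gene.

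TFPI2, a related inhibitor that acts mainly on plasmin and other proteases of the matrix, was the lowest of the 9 genes, on the minus strand of chromosome 7 from 93885396 to 93890753. It had 7 and 13 counts in control and 92 and 48 counts under the PRMT5 KD label. In CPM these were 0.177 and 0.26 against 1.93 and 1.00, without overlap, and the second PRMT5 KD library stayed under the RPKM minimum. The fit without a filter on low counts gave a log2 fold change of 2.77 (adjusted p = 0.00194 from edgeR). With filterByExpr it was 2.78, and over all gene names 2.82. The latter fit asked for 10 counts in 2 libraries, which the control libraries alone did not meet. All 3 fits rest on the same few counts. GNGT1, which the annotation places over the whole gene on the opposite strand, had 0 to 4 counts per library.

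THBD lies on the minus strand of chromosome 20 from 23045633 to 23049672 and has an annotated exon length of 4040 bases. It had 11.3 and 16.5 CPM in control and 33.7 and 36.6 CPM under the PRMT5 KD label. Each PRMT5 KD library was above both control libraries, and the control replicates were 1.46-fold apart. Thrombomodulin RNA rose from 13.9 ± 3.70 to 35.2 ± 2.05 CPM (SD, n = 2 each), or 2.53-fold (log2 fold change 1.34, SE 0.20, adjusted p = 0.00242), more than 94.5% of the genes tested. Its log2 fold change was 1.09 without control replicate 1 and 1.64 without control replicate 2, with a call in each and in all 14 of the remaining fits. At 3.44 RPKM in control it exceeded 32.4% of the genes tested, the least abundant of the called genes.

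THBS1, on the plus strand of chromosome 15 from 39581079 to 39599466, had more counts than the other 8 genes in control. It had 1465 and 983 CPM in control and 639.6 and 633 CPM under the PRMT5 KD label. The latter pair differed by 1.01-fold, and the spread was in control, where replicates were 1.49-fold apart. It fell from 1224 ± 341 to 636.5 ± 4.35 CPM (SD, n = 2 each), a 1.92-fold decrease (log2 fold change -0.94, SE 0.21, adjusted p = 0.0103). Without control replicate 1 the log2 fold change was -0.63 and the call was lost (adjusted p = 0.0621). The opposite-strand gene FSIP1 overlaps 11110 bases of THBS1 and had 135 to 171 counts per library.

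**Figure D2:**
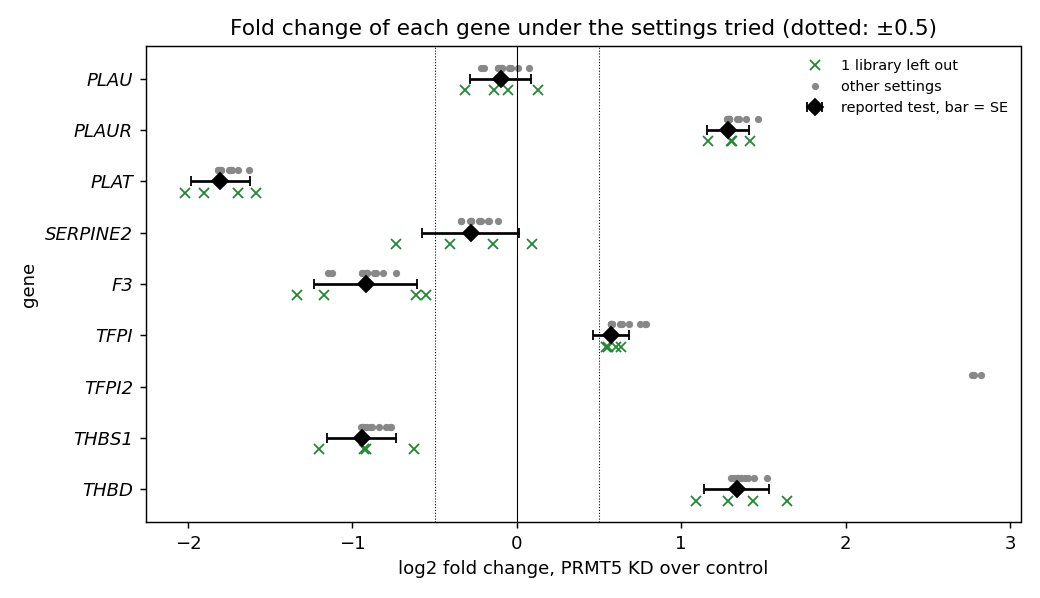
Log2 fold change of each gene, PRMT5 KD over control. Diamonds with bars are the reported edgeR estimate and its SE, grey dots the other settings and green crosses the fits without 1 library. All estimates for PLAUR, THBD, TFPI, PLAT, F3 and THBS1 lie beyond the dotted lines at 0.5 and -0.5, those for PLAU and SERPINE2 cross 0, and TFPI2 has values only from fits with other filters.

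Fold changes in these libraries varied with exon length, so each gene was set beside the 1000 tested genes nearest to it in exon length. Their median log2 fold change was -0.24 for TFPI, -0.16 for SERPINE2 and THBS1, -0.098 for PLAT, 0.075 for THBD, 0.12 for PLAUR, 0.19 for PLAU and 0.20 for F3. TFPI, with 11714 bases of exon, therefore rose among genes with a median below 0, and F3, with 2886 bases, had -0.92 among genes with a median above 0. After the correction for length and GC content the log2 fold changes of TFPI and THBS1 were 0.78 and -0.797, and the 5 calls were kept.

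Levels per length spanned more than the differences between groups. In control the order was PLAU (231 RPKM), F3 (182), THBS1 (134), SERPINE2 (45.5), PLAT (17.65), PLAUR (12.85), TFPI (12.6), THBD (3.44) and TFPI2 (0.0894). PLAUR at 11.7 and 14.0 RPKM and TFPI at 12.9 and 12.3 RPKM overlapped in control, as did F3 at 217.5 and 147 RPKM and THBS1 at 160.0 and 107 RPKM. Under the PRMT5 KD label PLAU, F3, THBS1 and SERPINE2 kept their order, at 216, 96.4, 69.5 and 37.5 RPKM. PLAUR (31.3) and TFPI (18.8) then followed, ahead of THBD (8.70), PLAT (5.06) and TFPI2 (0.601). PLAT thus went from rank 5 to rank 8 on this length. There SERPINE2 at 48.3 and 26.6 RPKM overlapped PLAUR at 31.75 and 30.9 RPKM, while PLAUR and TFPI no longer overlapped. Exon length over all transcripts of a gene exceeds the longest transcript in all but THBD, most for PLAUR (4457 against 1610 bases) and PLAT (7770 against 3462 bases), which lowers their RPKM. With the longest transcript as the length, PLAUR ranked 6 in control and 3 under the PRMT5 KD label, and PLAT 5 and 7.

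Ratios within a library do not depend on its scaling, and were computed for 4 pairs of genes on the RPKM scale. F3 stood 16.9- and 11.9-fold over TFPI in the control libraries and 3.89- and 6.35-fold over it in the libraries labelled PRMT5 KD. The groups did not overlap, and the mean log2 ratio went from 3.83 ± 0.35 to 2.31 ± 0.50 (SD, n = 2 each). PLAU stood 19.1- and 17.01-fold over its receptor PLAUR in control and 7.89- and 5.84-fold under the PRMT5 KD label, again without overlap. PLAU over SERPINE2 was 4.51- and 5.74-fold in control and 5.185- and 6.79-fold under the PRMT5 KD label, and there the groups overlapped. F3 over TFPI2 ranged from 90.7- to 3004-fold and rested on the few TFPI2 counts. The differences in mean log2 ratio were -1.51 (SE 0.43) for F3 to TFPI, -1.41 (SE 0.23) for PLAU to PLAUR and 0.22 (SE 0.26) for PLAU to SERPINE2. They are given without a p, since the exact two-sided permutation test used for single values gives none under 0.33 for 2 against 2 libraries.

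**Figure D3:**
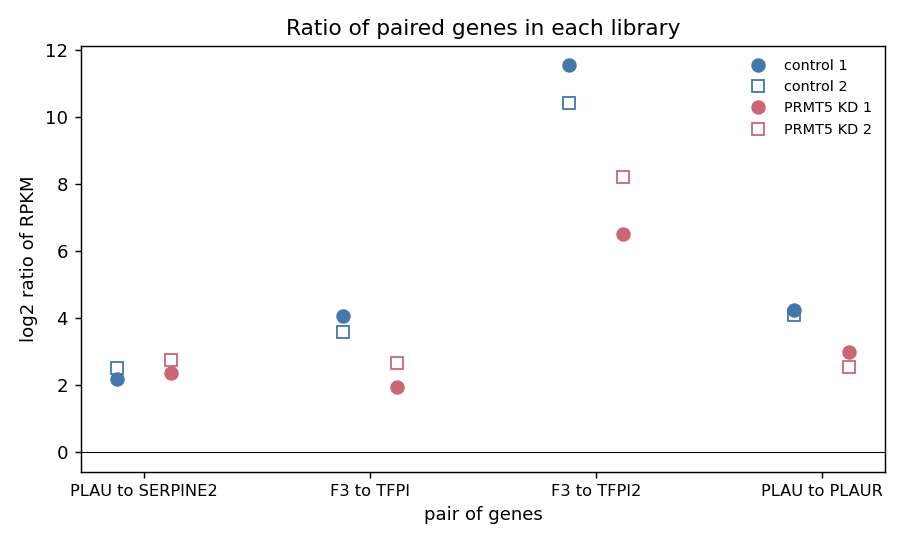
Log2 ratio of RPKM for 4 pairs of genes in each library. Blue symbols are control and red symbols PRMT5 KD libraries, filled circles replicate 1 and open squares replicate 2. The groups are apart for F3 to TFPI, F3 to TFPI2 and PLAU to PLAUR and overlap for PLAU to SERPINE2.

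Around these genes, 58 further genes of plasminogen activation, clotting and the thrombospondins were examined in 4 lists, of which 28 were tested, 3 were called higher and 17 lower, against a background of 45.5% called, 21.2% higher and 24.3% lower. Their median log2 fold change was -0.696, against -0.0077 over all genes tested. Both the count and the median include A2M, F2R, F2RL3 and THBS2, which were called lower and reached the filter in control alone. With 10 genes of the protein family of PLAUR added, 25 of 33 tested genes were called, 6 higher and 19 lower. With total counts alone that split was 9 higher and 15 lower, and without control replicate 2 the number called was 16. As given above, the tested squamous and fibroblast markers, PECAM1 and CD14 were also called lower, and CD68 was called higher. A link between these markers and the lists was not tested.

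In the plasminogen list 10 of 19 genes were tested, 2 were called higher and 5 lower, against 21.2% and 24.3% of all genes tested. Plasminogen itself (PLG) had 1 to 4 counts per library. LRP1, the endocytic receptor that clears activator and inhibitor complexes, fell from 3040 and 3911 to 785 and 739 CPM (log2 fold change -2.19, SE 0.18, adjusted p = 0.000426). MRC2, a collagen receptor that associates with PLAUR, fell from 496.5 and 635 to 144 and 121 CPM (log2 fold change -2.09, adjusted p = 0.00043). SERPINI1, or neuroserpin, an inhibitor of tissue-type activator, fell by 0.64 on the log2 scale (adjusted p = 0.0145), and lost the call without either control library and with total counts alone. ANXA2, which carries plasminogen and tissue-type activator at the surface, was called lower (log2 fold change -0.56, adjusted p = 0.0262) but not after the length and GC correction, with total counts alone, over all gene names, with filterByExpr, or without control replicate 1, control replicate 2 or PRMT5 KD replicate 1, where it was -0.35. Its partner S100A10 had a log2 fold change of 0.40, under the threshold, but 0.58 and a call with total counts alone. PLGRKT and A2M, low genes named after their values were seen, were the other calls. PLGRKT was at 1.02, without a call when either control library was left out or after the length and GC correction. A2M had 138 and 187 counts in control against 0 and 5, and reached the filter in control alone.

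In the clotting list 5 of 18 genes were tested, none was called higher and 4 were called lower, against 24.3% of all genes tested called lower. Of the circulating factors F2, F7, F9, F10, FGA, FGB and FGG were at 0 to 3 counts per library. F8 had 164 to 307 counts, and VWF went from 102 and 205 counts to 34 and 15 without overlap between groups, and neither passed the filter. The called genes serve the making of clotting factors. LMAN1 and MCFD2, the cargo receptor of factors V and VIII, had log2 fold changes of -1.66 and -0.696, and GGCX and VKORC1, the vitamin K dependent carboxylase and the enzyme that recycles vitamin K, had -1.26 and -0.6965 (largest adjusted p = 0.00915). MCFD2 and VKORC1 lost their calls without control replicate 2.

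In the list of anticoagulant proteins and thrombin receptors 7 of 12 genes were tested, none was called higher and 5 were called lower, against the same 24.3%. PROS1, the cofactor of activated protein C, fell from 159.8 and 191 to 67.1 and 65.8 CPM (log2 fold change -1.40, SE 0.13, adjusted p = 0.000508). The related ligand GAS6 fell by 1.53 on the log2 scale (adjusted p = 0.00042). The main thrombin receptor F2R fell from 21.2 and 25.9 to 2.59 and 1.21 CPM (log2 fold change -3.63, SE 0.36, adjusted p = 0.00096). F2R and F2RL3 reached the filter in control alone, with 0.65 and 0.31 RPKM and 0.22 and 0.13 RPKM under the PRMT5 KD label. F2RL2 (-0.55, adjusted p = 0.0481) was not called in 11 of the 16 other fits, among them those without PRMT5 KD replicate 1 (-0.30), control replicate 1 (-0.38) or control replicate 2 (-0.697), and F2RL3, named after its value was seen, had -3.60. PROCR, the endothelial protein C receptor that works beside thrombomodulin, had 36.2 and 40.6 CPM in control and 48.9 and 55.1 CPM under the PRMT5 KD label (log2 fold change 0.44, adjusted p = 0.0257), short of the fold threshold, which it passed with total counts alone (0.62). THBD was thus called higher where F2R and PROS1 were called lower and PROCR was not called.

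The thrombospondin list had 6 of 9 genes tested, 1 called higher and 3 lower, against 45.5% of all genes tested called in either direction. THBS2 and THBS3 fell further than THBS1, from 25.6 and 35.9 to 3.36 and 4.10 CPM (log2 fold change -3.04, SE 0.22, adjusted p = 0.000323) and from 74.5 and 87.7 to 13.8 and 12.3 CPM (log2 fold change -2.63, SE 0.14, adjusted p = 2e-04), a difference from THBS1 that was not tested. THBS2 reached the filter in control alone. Among receptors, the syndecan SDC1 fell by 1.55 on the log2 scale (adjusted p = 0.000653), SDC4 rose by 1.285 (adjusted p = 0.000906), and CD47 had 0.30 (adjusted p = 0.157).

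**Figure D4:**
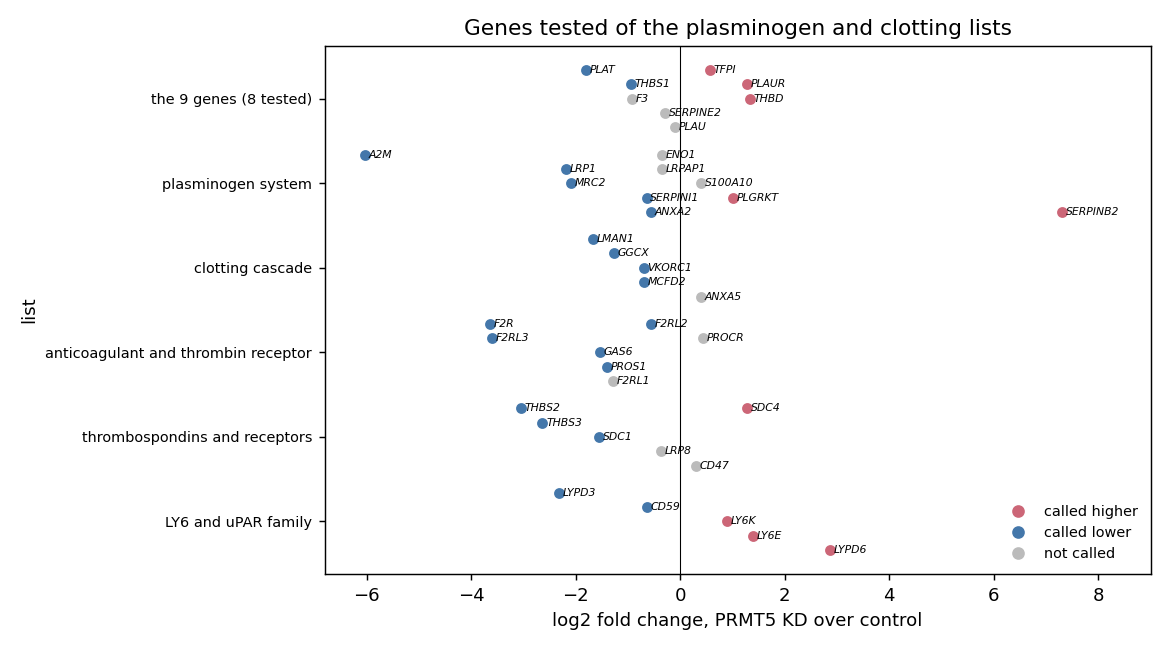
Log2 fold change, PRMT5 KD over control, of every tested gene of the 9 and of 5 further lists. Each point is 1 gene, red where called higher, blue where called lower and grey where not called. In the clotting list and the anticoagulant list no gene is called higher, and SERPINB2 lies farthest to the right at 7.315.

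The nearest tested gene on each side of the 9 genes was taken to see what lay beside them, 18 genes in all. Of these, 4 were called higher and 5 lower, which is near the background of 45.5%, and without control replicate 2 there were 4 calls. Calls beyond a log2 fold change of 2 in size were CADM4, a cell adhesion molecule 6245 bases from PLAUR, at -2.25 (adjusted p = 0.000568), and GNG11, a G protein subunit 30982 bases from TFPI2, at 2.38 (adjusted p = 0.0116). PLAUR therefore rose beside a neighbour that fell. The neighbours of PLAT, AP3M2 and IKBKB, had log2 fold changes of 0.43 and -0.44, neither called.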

How the data were processed

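RNA-seq of 4 UMSCC74B libraries, 2 control and 2 labelled PRMT5 KD, was used. The authors deposited estimated counts per gene, 1 table per library, without normalization. The submitters' notes list STAR, Salmon, DESeq2 and GRCh38 with no role. The study's methods describe FeatureCounts on protein-coding genes, but these tables hold decimals and RefSeq-style names, so the counter is not given in the sources used here, nor whether strand was used.

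Here, 28 names turned into dates were left out, names were matched to GENCODE release 44 (GRCh38) by symbol (21877), RefSeq number (1147) or unique synonym (1521), and counts were rounded. The test was edgeR 4.0.16 (R 4.3.3) with TMM factors, robust dispersion and no replicate term, SE being derived from the F statistic. The study's own tool, DESeq2 1.42.0, other scalings and filters, all gene names, a replicate block, a spline correction for length and GC content (4 degrees of freedom) and leaving out each library were alternatives. The fit was run on simulated data where far fewer genes changed than were called here, equally up and down and regardless of length. That run therefore does not test scaling or calls under changes as wide as those here. Depth is 52185289 to 65964558 counts per library.

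Genes named are the 9, PRMT5, SERPINB2, and up to 6 called genes a list whose average log2 CPM reached 3. For neighbouring genes the rule named those called beyond a log2 fold change of 2 in size, and others are named after their values were seen. The genes and lists were chosen with earlier results of these data known. Replicate numbers were not treated as pairs. No protein sequence was used here, and 1 gene first placed in the lists is not reported here.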

Additional observations from a re-analysis of the deposited data

How the results depend on the processing

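The crossed pairing and the longest-transcript lengths were chosen after seeing the data. PLAUR, PLAT and THBD kept direction and call in all 16 other fits. PLAU changed sign without a call under total counts alone (0.0758), over all gene names (0.0088) and without PRMT5 KD replicate 2, and SERPINE2 without that library. F3 was called under DESeq2 (-0.91), non-robust dispersion (-0.92, adjusted p = 0.0448), the length and GC correction (-1.125) and the crossed pairing (-0.94, adjusted p = 0.00296); the cause was not tested.

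With each library left out, log2 fold changes ran from -0.32 to 0.13 for PLAU, -0.74 to 0.094 for SERPINE2, -1.34 to -0.55 for F3, 0.54 to 0.63 for TFPI, -1.20 to -0.63 for THBS1 and 0.57 to 0.78 for PRMT5, and PRMT5 lost its call without control replicate 2 (adjusted p = 0.0675). Calls ran from 3117 to 5708 of all genes, 16 to 27 in the wider lists and 4 to 10 among neighbours. The lowest counts came without control replicate 2 and the highest from fits with 1 PRMT5 KD library. Fits with 1 control library and fits with 1 PRMT5 KD library have the same number of samples. The cause of the lower counts was not tested. A log2 threshold of 1 gave 2560 genes, 3 of the 8 and 4 neighbours by construction.

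Deviations of libraries with the same number correlated at -0.102 across genes, and neither labels nor methods pair them. A replicate block gave 5182 calls against 5417 and kept the 5 among the 8 genes, and the crossed pairing gave 5483. As CPM in place of RPKM, the control and PRMT5 KD log2 ratios were 0.74 and 0.97 for PLAU to SERPINE2, 1.805 and 0.29 for F3 to TFPI and 3.575 and 2.17 for PLAU to PLAUR. With the longest transcript they were 1.92 and 2.14 for the first pair and 2.85 and 1.44 for the last.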

Other observations

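PLAUR belongs to the family of LY6 and uPAR domain proteins, small cell surface proteins most of which hold a lipid anchor. Of 10 other members examined, 5 were tested, 3 were called higher and 2 lower, against 21.2% and 24.3% of all genes tested. LYPD6, a WNT coreceptor regulator, rose from 7.455 and 4.66 to 41.75 and 45.8 CPM (log2 fold change 2.86, SE 0.24, adjusted p = 0.000491 from edgeR), and kept its call without each library. LY6K rose by 0.89 on the log2 scale (adjusted p = 0.00151). LY6E, an interferon-induced member, rose by 1.39 (adjusted p = 0.0102) but was not called without control replicate 1 or control replicate 2 (adjusted p = 0.061 and 0.0566). CD59, which blocks the complement attack complex, fell by 0.63 (adjusted p = 0.0333) and lost its call without control replicate 1, control replicate 2 or PRMT5 KD replicate 2, where it was -0.39, and in 5 other fits. LYPD3, named after its value was seen, was the other call, at -2.325, and lost it without control replicate 2 (adjusted p = 0.0529).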
